A study of Mus musculus with 15 samples.

Results

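The replication-dependent histone genes of the mouse were followed through 15 bone marrow libraries of total RNA. They were taken as the protein-coding genes of the table whose names begin with Hist1h to Hist4h, H2ac, H2bc, H3c or H4c, or are H1f1 to H1f5. The rule found 61 of 38315 genes, made up of 5 genes for linker histone H1, 16 for H2A, 16 for H2B, 12 for H3 and 12 for H4. The rule used names alone and no measured value. Of the 61, 60 passed the filter on low values, a normalized count of at least 10 in at least 4 libraries. H3c14 did not pass. The germ cell genes H2ac1 and H2bc1, H4c16 and the Hist3 genes were not among the members found. The germ cell gene H1f6 could not be found under that name, since the rule leaves it out.

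DNA is wrapped around an octamer of the core histones H2A, H2B, H3 and H4, and H1 binds the linker DNA between nucleosomes. Cells in S phase need a large supply of new histones, which comes from many near-identical gene copies that lie in clusters and are transcribed mainly while DNA is copied. Their transcripts are the known exception among messenger RNAs in that they end in a short stem-loop and not in a poly(A) tail. The stem-loop is bound by Slbp and is needed for 3′ end cleavage, translation and rapid decay at the end of S phase. Libraries selected on poly(A) tails miss most of these transcripts, whereas libraries of total RNA hold them.

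The AML group consisted of 7 marrows from transgenic mice of the genotype NUP98-NSD1/FLT3-ITD with acute myeloid leukaemia (AML). NUP98-NSD1 is a fusion of a nucleoporin with a histone methyltransferase, and FLT3-ITD is an activated form of a receptor tyrosine kinase. The controls were wild-type mice without either allele, with 4 libraries of whole marrow and 4 of lineage-negative marrow, which is marrow depleted of cells that carry mature lineage markers. The promoters of the transgenes, the age of the mice and whether marrows were pooled are not given in the sources used here. The libraries are labelled as separate samples, but nothing says that each came from another mouse, so the p-values measure the spread between these samples.

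The libraries differed in ways that touch every result. The depth, estimated from the step between low values, was 20.3 to 35.1 M reads in AML, 11.4 to 17.2 M in whole marrow and 20.3 to 28.1 M in lineage-negative marrow. The total of normalized counts was 23507700 to 29658600 in AML, 10221000 to 19285200 in whole marrow and 17878800 to 21031100 in lineage-negative marrow, so the deposited scaling did not equalize the libraries. The median of all 18941 tested genes was 0.67 log2 units higher in AML than in whole marrow, 0.02 higher in AML than in lineage-negative marrow and 0.59 higher in lineage-negative than in whole marrow. With TMM scaling (trimmed mean of M values) these medians were −0.01, 0.02 and −0.08. Whole marrow replicate 1 stood apart with the lowest total. Signal over 1750 olfactory and vomeronasal receptor genes, which marrow should not express, was 1.88 to 3.54 normalized counts per kb in whole marrow. It was 0.120 to 0.996 in AML and only 0.0969 to 0.137 in lineage-negative marrow, and AML replicates 6 and 5 were the highest of their group with 0.996 and 0.344.

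In the table, 51 members lay on chromosome 13 and 10 on chromosome 3. Those on chromosome 13 formed 2 blocks, with 23 members from 21899933 to 22227846 and 28 members from 23715220 to 23948389, and those on chromosome 3 lay between 96127181 and 96177448. All 5 H1 genes lay on chromosome 13. These positions are given as in the table. The submitters' processing notes name mm10, but none of the 61 starts equals the start of the same gene in the GRCm38 annotation, so the build of the table's positions is not settled here.

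The stem-loop itself was searched for in the GENCODE M21 transcripts of GRCm38, after the stop codon on the sense strand, as a 16-base pattern with the letters fixed at most positions and free at those where histone stem-loops are known to vary. It was found in 40 of 61 members, namely 3 of 5 H1, 10 of 16 H2A, 9 of 16 H2B, 9 of 12 H3 and 9 of 12 H4 genes, against 22 of 21840 other protein-coding genes (0.101%). The core began 21 to 58 bases after the stop codon, with a median of 31. Of the 21 members without a match, 17 had at most 60 bases annotated after the stop codon, so the annotated transcript may end before it. Examples of every core sequence found are shown because they are what sets these transcripts apart; all lie in the 3′ UTR, are written in DNA letters 5′ to 3′ in the sense of the gene, and have the 16-base core in capitals, with GRCm38 coordinates of the core.
H1f2, chr13:23739512-23739527, plus strand: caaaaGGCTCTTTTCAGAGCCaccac
H2ac7, chr13:23574895-23574910, plus strand: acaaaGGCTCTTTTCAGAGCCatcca
H2ac20, chr3:96220418-96220433, minus strand: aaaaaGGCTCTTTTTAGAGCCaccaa
H2bc3, chr13:23747203-23747218, plus strand: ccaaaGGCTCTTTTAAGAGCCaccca
H3c6, chr13:23561903-23561918, minus strand: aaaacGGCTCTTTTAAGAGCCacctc
H3c8, chr13:23535889-23535904, plus strand: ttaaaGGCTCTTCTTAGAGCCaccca
H4c8, chr13:23531458-23531473, plus strand: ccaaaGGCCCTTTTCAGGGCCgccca
H4c14, chr3:96262939-96262954, minus strand: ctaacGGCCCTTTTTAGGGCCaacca
H4c1, chr13:23760800-23760815, minus strand: ccaaaGGCCCTTCTCAGGGCCgccca

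The core differed by class. The sequence shown for H1f2 and H2ac7 was found in 3 of 3 matched H1, 9 of 10 H2A, 7 of 9 H2B and 5 of 9 H3 genes, and in no H4 gene. All 9 matched H4 genes had another stem, with 6 carrying the core shown for H4c8, 2 that of H4c14 and 1 that of H4c1. The annotation ran on for more than 300 bases after the stem-loop in 15 of the 40 genes, among them H1f2, H2ac6 and H4c14. Polyadenylated forms that read past the stem-loop are known for H1f2, H2bc4 and H2bc21.

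Summed over the 61 members, the mean level in AML was 419480 ± 127897 normalized counts (SD, n = 7). It was 340219 ± 78412 in the whole marrow controls and 364172 ± 64165 in the lineage-negative controls (SD, n = 4 each). The AML libraries ranged from 246201 to 620076 with a median of 431126. The whole marrow libraries held 230856, 388822, 336855 and 404341 in the order of their replicate numbers. The lineage-negative libraries held 416941, 422464, 309545 and 307738. The ranges of all 3 groups overlapped, with the highest sum in AML replicate 1 and the lowest in whole marrow replicate 1. As a share of all normalized counts of a library the members took 1.56% ± 0.404 in AML, 2.1% ± 0.192 in whole marrow and 1.87% ± 0.191 in lineage-negative marrow, so on this scale the order of AML and whole marrow was the opposite. After TMM scaling the mean sums were 367416, 473721 and 320715. In bulk libraries fewer cells in S phase and less RNA per cell cannot be told apart.

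**Figure D1:**
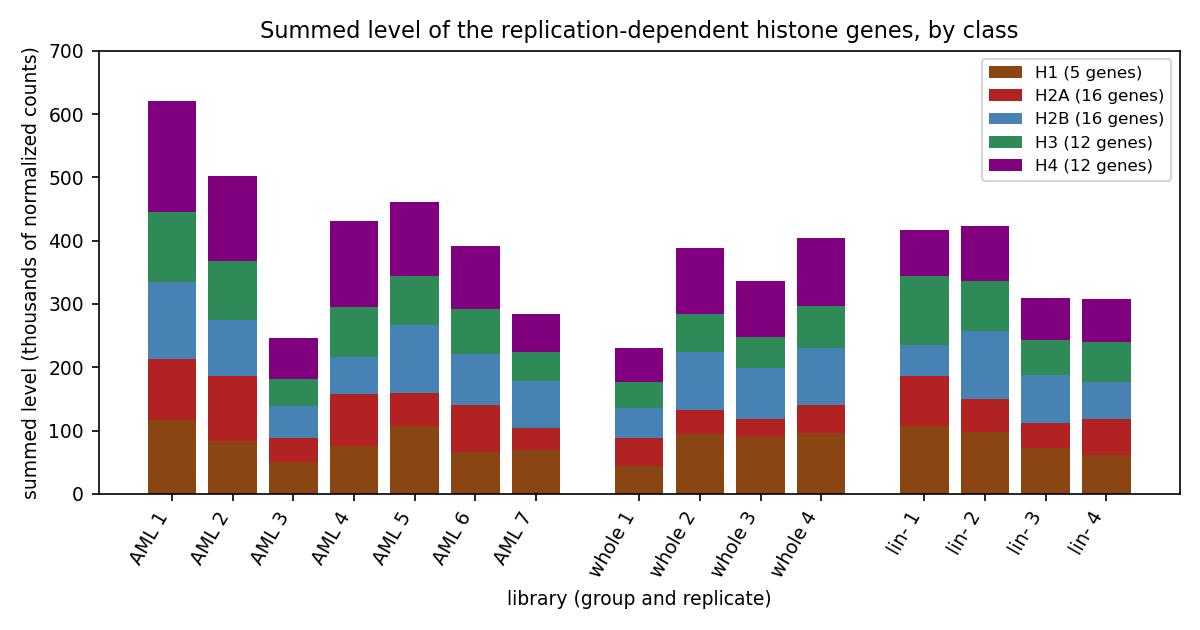
Summed level of the 61 histone genes in each of the 15 libraries (normalized counts, bars from 0), stacked by class. AML replicates range from 246201 to 620076 normalized counts and overlap both control groups; whole marrow replicate 1 is the lowest library at 230856.

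The mix of classes within the total does not depend on the scaling of a library. H4 genes took 26.5% ± 3.16 in AML, 25.8% ± 1.76 in whole and 20.2% ± 1.87 in lineage-negative marrow (SD, n = 7, 4 and 4). The H4 share of every lineage-negative library, 17.6% to 21.8%, lay below that of every whole marrow library, 23.2% to 26.9%, and AML ran from 21.2% to 31.7%. H2A genes took 16.2% ± 3.49 in AML, 12% ± 4.62 in whole and 15.6% ± 3.47 in lineage-negative marrow. H2B genes took 20.2% ± 3.97 in AML, 22.5% ± 1.38 in whole and 20.1% ± 6.14 in lineage-negative marrow. H3 genes took 17.5% ± 0.958 in AML, 16.2% ± 1.38 in whole and 20.9% ± 3.46 in lineage-negative marrow, and every lineage-negative library, 18.3% to 25.8%, lay above every whole marrow library, 14.8% to 17.98%. H1 genes took 19.7% ± 3.04 in AML, 23.5% ± 3.09 in whole and 23.1% ± 2.46 in lineage-negative marrow.

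Levels were unequal within each class. Per kb of exon and averaged over the 15 libraries, H4c8 was the highest member at 37894 normalized counts per kb, followed by H4c6 at 27770.4, H2ac19 at 27657 and H2bc3 at 26477. Among H1 genes H1f1 led with 20819 per kb, ahead of H1f5 with 14292 and H1f2 with 12691. H3c2 led the H3 genes with 18571 per kb, ahead of H3c3 with 11587 and H3c6 with 11014. At the other end H2bc21 stood at 118, H2ac23 at 209 and H4c17 at 284 per kb. H3c14 was listed at or near 0 in AML and lineage-negative marrow and reached a mean of 5.13 normalized counts in whole marrow, while its close copy H3c15 stood at 8943 in AML. The annotated H3c14 transcript has 1820 bases, and the receptor genes stood at 1.88 to 3.54 per kb in whole marrow. Whether the H3c14 value exceeds that signal was not tested. The 3 highest members of a class by count held 68.3% of the H1, 56.5% of the H2A, 42.9% of the H2B, 45.3% of the H3 and 52.6% of the H4 counts.

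Between such copies reads are hard to assign, and how the authors' counting treated reads that fit several genes is not given in the sources used here. Of all 50-base windows in a member's annotated transcript, the share found in no other member had a median of 97.8% for H1, 60.1% for H4, 45.4% for H2B, 42.8% for H3 and 20.7% for H2A genes. The share was under 50% in 31 of 61 members, and 10 members had a coding sequence identical to that of another. For H2ac18 it was 10.8% and for its neighbour H2ac19 0%. Values below of single H2A genes, and of other members with a low share, are uncertain to that extent. The latter include H4c17 with 10.2%, H4c18 with 14.4% and H3c13 with 20.3%. The sum over a class is not affected by how reads are split within it. It would be lowered, and not equally in all classes, if reads that fit several genes were dropped.

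AML was compared with whole marrow to see whether leukaemic marrow carries another level of histone transcripts than normal marrow. On the deposited scale 6 of 16 H2A and 1 of 11 tested H3 genes rose in AML, and with TMM scaling 1 of 16 H2A genes did. Of the 60 tested members 7 rose (H2ac7, H2ac8, H2ac11, H2ac13, H2ac18, H2ac21 and H3c13) and 0 fell. Of all 18941 tested genes 27.3% rose and 11.3% fell, beside 7 and 0 of the 60 members. By limma's unadjusted p below 0.05, whatever the size, 15 members were higher and 0 lower. The share of all genes at an unadjusted p was not counted, here or below, so such counts have no background beside them. Called means here a limma adjusted p below 0.05 together with a log2 difference of 1 or more in size. The median log2 difference of the members was 0.25, which is 0.43 below the median of all genes. By class the median was 0.88 for H2A, 0.40 for H3, 0.24 for H4, 0.10 for H2B and 0.01 for H1 genes, and none of the 5 H1, 16 H2B or 12 H4 genes was called. Against the median of all genes the class medians lay 0.21 higher for H2A and at −0.28 for H3, −0.43 for H4, −0.58 for H2B and −0.66 for H1 genes. The classes were not tested against each other.

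H2A is the core histone that pairs with H2B in the nucleosome. H2ac8 (chromosome 13, 23754691-23755394, minus strand) had 745, 889.7, 629.6 and 1029 normalized counts in the whole marrow libraries and 1138 to 3195 with a median of 1502 in AML. The groups did not overlap, and the log2 difference was 1.19 (SE 0.26, limma adjusted p = 0.00067). H2ac7 (chromosome 13, 23758555-23759126, plus strand) had 384, 984, 659 and 972 normalized counts in the whole marrow libraries and 1046 to 4336 with a median of 1866 in AML. Again the groups did not overlap, with a difference of 1.51 (SE 0.37, limma adjusted p = 0.0016). H2ac18 (chromosome 3, 96152813-96153398, plus strand) had 3171, 7376, 5331 and 7722 normalized counts in the whole marrow libraries and 8321 to 36883 with a median of 14079.8 in AML. Its groups did not overlap either, with a difference of 1.53 (SE 0.38, limma adjusted p = 0.0017), but H2ac19, from which it can hardly be told apart, had 15909.7 ± 9832 in AML and 13306 ± 4694 in whole marrow and was not called at 0.06 (SE 0.48, limma adjusted p = 0.93). The sum of both copies was 34595 ± 14916 over the 7 AML and 19206 ± 3729 over the 4 whole marrow libraries (mean ± SD), with overlapping ranges of 15272 to 52738 and 14182 to 23071. H2ac13 (chromosome 13, 21900592-21900984, plus strand) had 233, 82.1, 60.6 and 145 normalized counts in the whole marrow libraries and 204 to 1606 with a median of 409.8 in AML. This was the largest difference of any member, 2.25 (SE 0.53, limma adjusted p = 0.0012), and 5 of the 7 AML libraries exceeded every whole marrow library. H2ac11 and H2ac21, named because they were called, differed by 1.00 (SE 0.28, limma adjusted p = 0.0041) and 1.24 (SE 0.34, limma adjusted p = 0.0035), and 6 of the 7 AML libraries exceeded every whole marrow library in each. The call of H2ac11 was lost without AML replicate 1, 2 or 4 (0.84, 0.92 and 0.98) or whole marrow replicate 1 or 3 (0.90 and 0.91), and no other call of this comparison was lost when single libraries were left out in turn. Members whose groups did not overlap numbered 3 of 60 with AML higher and 0 with AML lower, beside 35.8% and 7.88% of all genes.

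H2A genes that were not called included H2ac4, a well expressed copy, at 0.51 (SE 0.26, limma adjusted p = 0.096), and H2ac23, at −0.79 (SE 0.58, limma adjusted p = 0.24). In the H3 class H3c13 rose: it had 2228, 1056, 609 and 2559 normalized counts in whole marrow and 2168 to 6449 with a median of 4376 in AML, a difference of 1.49 (SE 0.39, limma adjusted p = 0.0031); 5 of the 7 AML libraries exceeded every whole marrow library. H3c6 differed by 0.62 (SE 0.25, limma adjusted p = 0.038), below the required size. The linker histone gene H1f2 had 20794 ± 6995 in AML and 21000.4 ± 7370.2 in whole marrow, with a difference of 0.01 (SE 0.31, limma adjusted p = 0.97). Among H2B genes H2bc3 differed by 0.21 (SE 0.29, limma adjusted p = 0.55) and H2bc8 by 0.22 (SE 0.28, limma adjusted p = 0.5). H2bc4 and H2bc21, whose polyadenylated forms are known, differed by 0.27 (SE 0.25, limma adjusted p = 0.35) and 0.38 (SE 0.30, limma adjusted p = 0.28). H4c8 differed by 0.44 (SE 0.32, limma adjusted p = 0.23), and H4c17 had the lowest value of any member, −0.81 (SE 0.63, limma adjusted p = 0.27). H4c17 has the same coding sequence as H4c18, which differed by 0.51 in this comparison.

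The direction of this comparison depended on scaling, which moved the differences of all members by −0.69 to −0.68. With TMM scaling 1 member rose (H2ac13, 1.56) and 3 fell (H1f1, H2bc15 and H2bc18), beside 4.77% and 16% of all genes, and the members' median was −0.44. The TMM medians were 0.19 for H2A, −0.30 for H3, −0.45 for H4, −0.60 for H2B and −0.68 for H1 genes. On the deposited scale 13 of 60 members, 11 H2A and 2 H3 genes, lay above the median of all genes. Since every member is moved by nearly the same amount, the order of the classes is the same on both scales by construction. The cell makeup differed too: 7 of 7 tested late erythroid genes were lower in AML, with a summed level of 390 to 31960 normalized counts against 802516 to 1980080 in whole marrow, and 7 of 7 pre-B genes were lower, while 0 of 7 mature neutrophil genes were called. The part of cell makeup in the histone values was not tested. With the signal over the receptor genes subtracted per kb, 7 members rose and 0 fell.

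**Figure D2:**
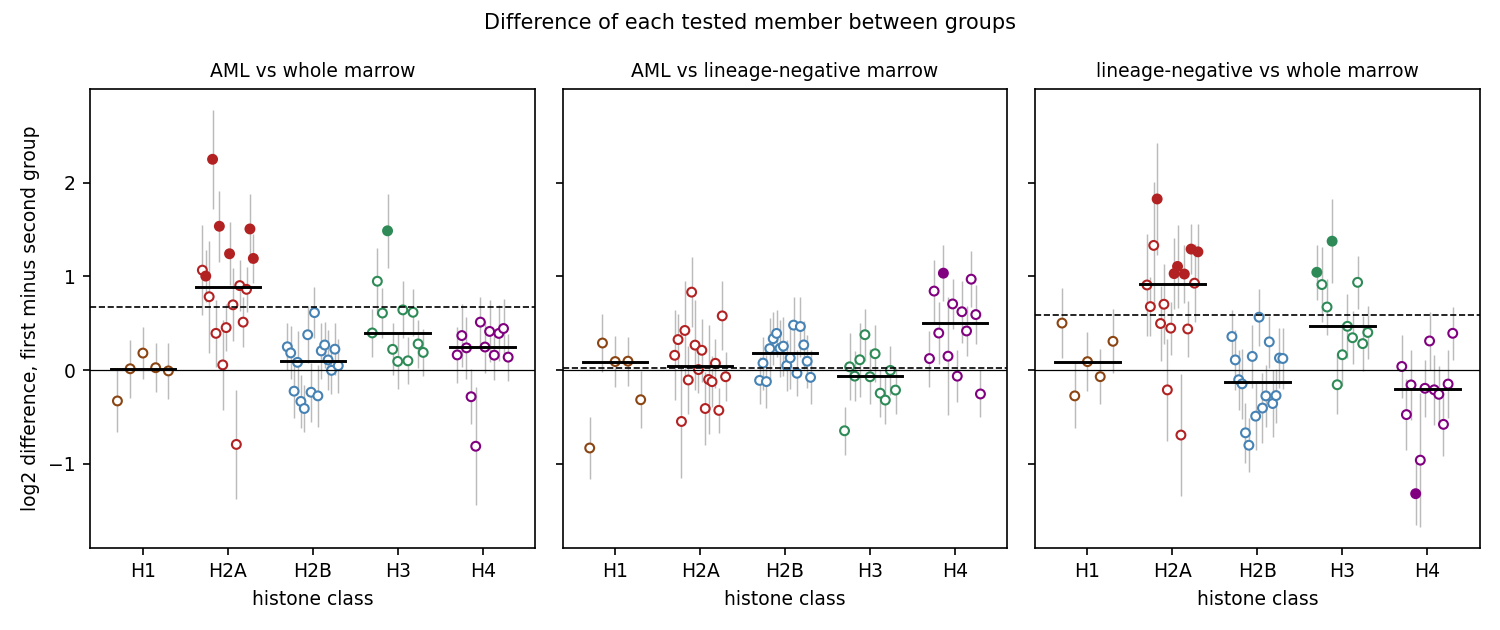
Log2 difference of each of the 60 tested members in the 3 comparisons, by class (points, with bars of 1 SE; filled points are called, black bars are class medians, the dashed line is the median of all tested genes). H2A genes lie highest where whole marrow is the reference, with class medians of 0.88 and 0.92, and H4 genes lie highest between AML and lineage-negative marrow, with a median of 0.50.

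AML set against lineage-negative marrow places leukaemic marrow tissue beside normal marrow depleted of cells with mature lineage markers. The mature neutrophil genes summed to 380349 to 1310710 normalized counts in AML and to 926 to 15765 in lineage-negative marrow. Of the histone classes, H4 genes lay highest in this comparison. 1 of 60 members rose (H4c14) and 0 fell, beside 17.7% and 12.5% of all genes, and the median of the members was 0.10 against 0.02 for all genes. By limma's unadjusted p below 0.05 5 members were higher and 2 lower, again without a share over all genes. The class medians were 0.50 for H4, 0.18 for H2B, 0.09 for H1, 0.04 for H2A and −0.06 for H3 genes, and 10 of 12 H4 genes were above 0. H4c14 (chromosome 3, 96168998-96170627, minus strand) had 2880.1, 2203, 1607 and 2690.2 normalized counts in lineage-negative marrow and 2170.3 to 7177 with a median of 6364 in AML, so 5 of 7 AML libraries lay above all lineage-negative libraries. The difference was 1.03 (SE 0.30, limma adjusted p = 0.0072). This call was close to the required size: it was lost without AML replicate 1, 2, 4 or 6 or lineage-negative replicate 3, with log2 differences between 0.86 and 1.22 over all libraries left out in turn.

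Other members passed the adjusted p but not the size. H4c6 had 13609 ± 5048 in AML and 6677 ± 1760.5 in lineage-negative marrow (SD, n = 7 and 4), with a difference of 0.97 (SE 0.30, limma adjusted p = 0.012). H4c18 had 11260.2 ± 3896 in AML and 6714 ± 1636 in lineage-negative marrow, with a difference of 0.71 (SE 0.27, limma adjusted p = 0.039). H4c11, named because it passed the p, differed by 0.84 (SE 0.33, limma adjusted p = 0.045). In the other direction H1f1, a linker histone gene, had 28757, 22297, 16805 and 16037 in lineage-negative marrow and 4835 to 18962 with a median of 14355 in AML, a difference of −0.83 (SE 0.33, limma adjusted p = 0.046). H3c1 had 9304, 5645, 4239 and 4995 in lineage-negative marrow and 2181 to 5611 with a median of 4162 in AML, a difference of −0.65 (SE 0.26, limma adjusted p = 0.047). In each case 5 of 7 AML libraries lay below all lineage-negative libraries. No member had groups that did not overlap, beside 17% of all genes with AML higher and 17.6% with AML lower. TMM scaling gave 1 higher and 0 lower here, beside 17.5% and 12.5% of all genes.

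Lineage-negative and whole marrow differ in maturity within wild-type mice. Of the 60 members 8 rose in lineage-negative marrow (H2ac6, H2ac8, H2ac13, H2ac21, H2ac22, H2ac24, H3c1 and H3c13) and 1 fell (H4c14), beside 33.1% and 17.2% of all genes. The class medians were 0.92 for H2A, 0.47 for H3, 0.09 for H1, −0.12 for H2B and −0.20 for H4 genes, with 0.59 for all genes and 0.22 for all members. H2ac6 had 1158, 1412, 1167 and 1876 normalized counts in whole and 3598, 3682, 3213 and 3014 in lineage-negative marrow, without overlap, a difference of 1.29 (SE 0.27, limma adjusted p = 0.00033). H3c1 had 2281, 2911, 2474 and 3750.5 in whole marrow, below all 4 lineage-negative libraries given above, a difference of 1.04 (SE 0.29, limma adjusted p = 0.004). H4c14 had 5377, 6132, 5627 and 5708 in whole marrow, above all 4 lineage-negative libraries, a difference of −1.32 (SE 0.33, limma adjusted p = 0.0019). This fall is on a scale where most genes lie higher, it was −2.01 with TMM scaling, and it was called under all 26 alternative settings and library sets, at −2.01 to −1.15. H4c14 is also among the members whose reads are easiest to assign, with 99.0% of its windows found in no other member.

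The other differences between these wild-type groups were 1.26 (SE 0.29, limma adjusted p = 0.00099) for H2ac8, 1.02 (SE 0.31, limma adjusted p = 0.0066) for H2ac24 and 1.37 (SE 0.45, limma adjusted p = 0.011) for H3c13. H2ac13 differed by 1.82 (SE 0.59, limma adjusted p = 0.012), H2ac21 by 1.03 (SE 0.38, limma adjusted p = 0.023) and H2ac22 by 1.11 (SE 0.44, limma adjusted p = 0.034). Groups that did not overlap were found for 7 members with lineage-negative marrow higher and 2 with it lower, beside 41.1% and 16.6% of all genes. With TMM scaling 0 members rose and 9 fell (5 H2B and 4 H4 genes), beside 11.2% and 24.6% of all genes. Without lineage-negative replicate 1 calls were lost for H2ac21 (0.88), H2ac22 (0.83), H2ac24 (0.84), H3c1 (0.81) and H3c13 (0.95), and without whole marrow replicate 3 for the same 5 (0.84, 0.83, 0.87, 0.98 and 0.98). Without whole marrow replicate 1 those of H2ac21 (0.90) and H3c1 (0.94) were lost, and that of H2ac22 also without whole marrow replicate 2 or lineage-negative replicate 4. H2ac6, H2ac8, H2ac13 and H4c14 kept their calls with any 1 library left out. Without whole marrow replicate 3 the count of members that rose was 3 in place of 8, and without lineage-negative replicate 1 it was 4. This comparison shares the whole marrow libraries with that of AML against whole marrow.

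Most H2A and H2B genes stand in divergent pairs that share the stretch between their starts, which allows a comparison within a library that no scaling of a whole library can change. There were 11 such pairs with 175 to 301 bases between the starts. The mean ratio of H2A to H2B was higher in AML than in whole marrow in 10 of 11 pairs, with a median fold of 1.75 and a range of 0.332 to 6.10. Without whole marrow replicate 1 the median fold was 2.39 and the highest 11.5, and without AML replicate 1 the ratio was higher in 9 of 11. Between lineage-negative and whole marrow it was higher in 10 of 11 pairs with a median fold of 2.31, again against the same whole marrow libraries, and between AML and lineage-negative marrow it was higher in 3 of 11 with a median fold of 0.883. The last count rested on 1 library: without lineage-negative replicate 1 the ratio was higher in AML in 8 of 11 pairs, with a median fold of 1.11. The same library left out gave a median fold of 1.83 between lineage-negative and whole marrow, still higher in 10 of 11. For H2ac7/H2bc7 the ratio was 0.158, 0.261, 0.202 and 0.244 in whole marrow and 0.286 to 0.958 with a median of 0.833 in AML, without overlap. In lineage-negative marrow it was 0.337, 0.571, 0.579 and 0.509, also without overlap with whole marrow. For H2ac8/H2bc8 the ratio was 0.12, 0.0686, 0.0558 and 0.0764 in whole marrow and 0.094 to 0.222 with a median of 0.161 in AML, and the ranges overlapped. For H2ac6/H2bc4 it was 0.462, 0.28, 0.289 and 0.396 in whole and 0.734, 0.561, 0.667 and 0.838 in lineage-negative marrow, without overlap. H2ac13/H2bc13 had the largest fold between AML and whole marrow, 6.10 with all libraries and 11.5 without whole marrow replicate 1, with 0.253, 0.0491, 0.0381 and 0.0812 in whole marrow and 0.111 to 1.55 with a median of 0.489 in AML, again with overlap. H2ac23/H2bc23 was the pair that went the other way, with 0.358, 0.146, 0.0414 and 0.301 in whole marrow and 0.0209 to 0.118 with a median of 0.0627 in AML. Only 6.5% of the windows of H2ac23 and 0% of those of H2bc23 were found in no other member. Their coding sequences are identical to those of H2ac24 and H2bc24, so how reads were split among copies can change this ratio. Groups did not overlap in 1 of 11 pairs between AML and whole marrow.

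**Figure D3:**
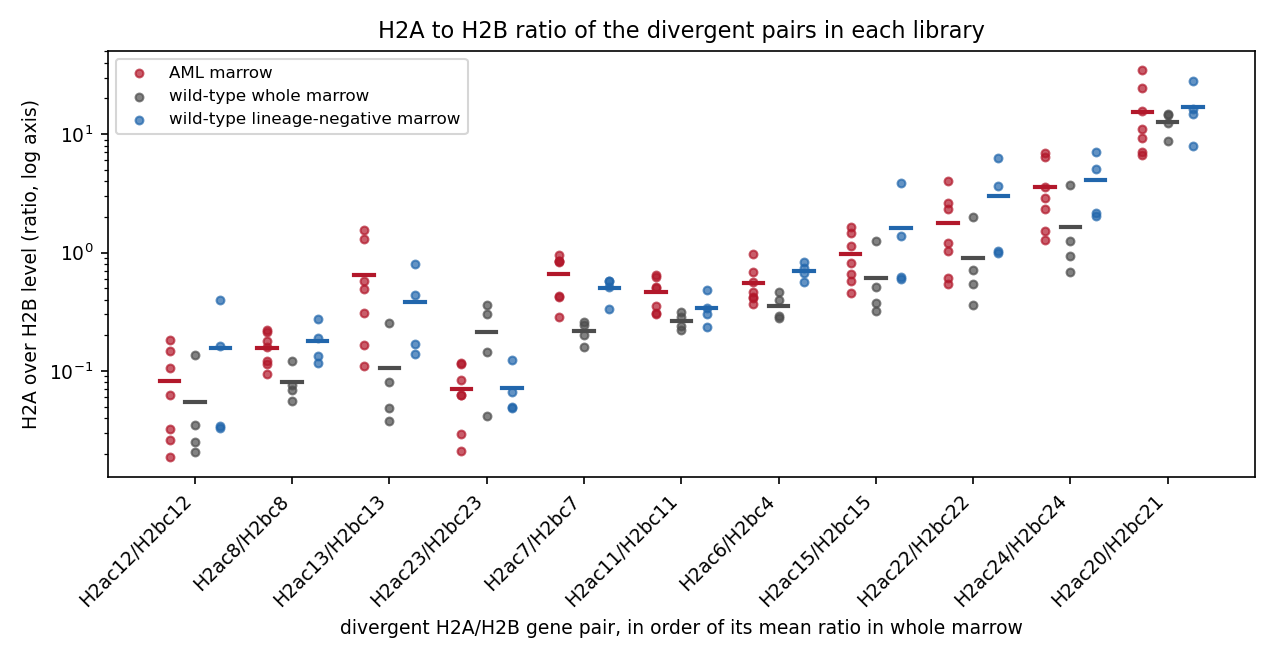
Ratio of the H2A to the H2B gene of each divergent pair (log axis) in each library (points), with the mean of each group (short lines). The mean of AML lies above that of whole marrow in 10 of 11 pairs, and single libraries of all groups overlap in all but H2ac7/H2bc7 for that comparison.

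The shared stretches between the starts of 3 pairs are shown because the pairs differ in their measured values: H2ac7/H2bc7, whose groups did not overlap, H2ac8/H2bc8, whose H2A gene rose in both comparisons with whole marrow, and H2ac23/H2bc23, whose ratio went the other way with the limit on its reads given above. They are RefSeq sequence of GRCm38.p6, written 5′ to 3′ on the plus strand from base to base between the RefSeq starts, with 3 motifs in capitals wherever they occur on either strand: the CCAAT box, the TATA motif TATAAA and the octamer ATTTGCAT.
H2ac7/H2bc7, chr13:23574208-23574380: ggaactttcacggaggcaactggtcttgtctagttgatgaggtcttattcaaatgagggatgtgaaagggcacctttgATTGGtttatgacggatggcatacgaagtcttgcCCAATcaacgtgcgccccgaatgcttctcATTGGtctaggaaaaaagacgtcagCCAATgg
H2ac8/H2bc8, chr13:23571221-23571399: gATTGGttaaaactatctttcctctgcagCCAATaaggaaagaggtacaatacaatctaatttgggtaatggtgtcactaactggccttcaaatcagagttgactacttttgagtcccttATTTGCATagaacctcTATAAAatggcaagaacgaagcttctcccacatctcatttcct
H2ac23/H2bc23, chr13:21810200-21810366: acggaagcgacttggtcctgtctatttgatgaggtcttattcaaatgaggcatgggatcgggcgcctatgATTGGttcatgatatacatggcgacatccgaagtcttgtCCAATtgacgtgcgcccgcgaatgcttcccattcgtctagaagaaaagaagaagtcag
H2ac7/H2bc7 holds 4 CCAAT motifs and neither of the others, H2ac8/H2bc8 holds 2 CCAAT, 1 TATAAA and 1 octamer motif, and H2ac23/H2bc23 holds 2 CCAAT motifs.

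Over RefSeq windows from 250 bases before to 50 bases after the start, matched for 55 of 61 members and searched on both strands, CCAAT was found in 47 of 55 members against 37.4% of all 32851 windows. It was in all 5 H1, 16 H2A, 13 H2B and 10 H3 windows and in 3 of 11 H4 windows. TATAAA was in 32 of 55 members against 13.6% of all windows. The octamer was in 10 of 55 against 1.74%, with 5 of 16 H2A and 5 of 13 H2B windows and none of the H1, H3 or H4 windows. Neighbouring pairs share windows in part, so these counts are not independent. The motifs are descriptions of the sequence and were not tested against the levels.

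Libraries of the same group varied in the mix of histone genes, and the variation crossed the groups. The H2A sum over the H2B sum was 0.486 to 1.41 in AML, with 1.41 in replicate 4, 1.18 in replicate 2 and 0.925 in replicate 6. In whole marrow it was 0.907 in replicate 1 and 0.363 to 0.483 in the others. In lineage-negative marrow it was 1.60 in replicate 1, 0.952 in replicate 4 and 0.488 and 0.533 in the others. H2ac22 shows the same libraries apart, with 1584, 1901, 579, 2232, 851, 1734 and 593 normalized counts in AML replicates 1 to 7, 1175, 678, 417 and 877 in whole marrow and 2828, 1218, 919.5 and 1979 in lineage-negative marrow. AML replicate 1 had the highest and replicate 3 the lowest sum of all members in AML, with 620076 against 246201, a 2.52-fold span, against 1.75-fold within whole and 1.37-fold within lineage-negative marrow.

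Base composition also differed between the libraries. The exonic GC content had a class median of 64.3% for H2A, 59.9% for H3, 57.0% for H4, 54.6% for H2B and 54.5% for H1 genes. Over all tested genes the level of the tenth richest in GC (at least 57.2%) relative to the tenth poorest (at most 40.4%), taken against each gene's mean over the libraries, was −0.541 to −0.370 log2 units in the whole marrow libraries. The AML libraries had −0.0535 to 0.470 and the lineage-negative libraries −0.104 to 1.07. The highest values were 1.07 in lineage-negative replicate 1 and 0.470 in AML replicate 4, which were also the highest of their groups in the H2A to H2B ratio. In AML the order was similar over the other libraries. Replicates 1, 2 and 6 had GC values of 0.359, 0.220 and 0.129 with ratios of 0.789, 1.18 and 0.925. Replicates 3, 7 and 5 had 0.0937, −0.0453 and −0.0535 with ratios of 0.729, 0.486 and 0.489. In the control groups other libraries did not line up in this way. Lineage-negative replicate 4 had the second highest ratio of its group at a GC value of −0.0726, and replicate 2 had the lowest ratio, 0.488, at 0.268. Whole marrow replicate 1 had the highest ratio of its group at −0.469, and replicate 2, with the highest GC value of that group, had a ratio of 0.418. With the GC trend of each library removed, a step chosen after seeing the data, 5 members rose in AML against whole marrow in place of 7, of which 4 were H2A genes, and 0 fell, beside 26.5% and 11.3% of all genes. The H2A median was then 0.53, below the 0.68 of all genes, whereas before it was 0.88 against 0.67. It stayed the highest class median, with 0.14 for H3, 0.08 for H4, −0.05 for H2B and −0.13 for H1 genes. In lineage-negative against whole marrow 3 members rose and 2 fell, beside 33.5% and 17.3% of all genes, and the H2A median was 0.39 against 0.61. The other class medians there were 0.31 for H3, 0.16 for H1, −0.32 for H2B and −0.39 for H4 genes. The H2A genes called in either comparison with whole marrow ran in GC from 45.9% for H2ac6 and 54.1% for H2ac8 over 59.4% for H2ac7 to 70.0% for H2ac13. The part of base composition in the differences was not tested further.

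**Figure D4:**
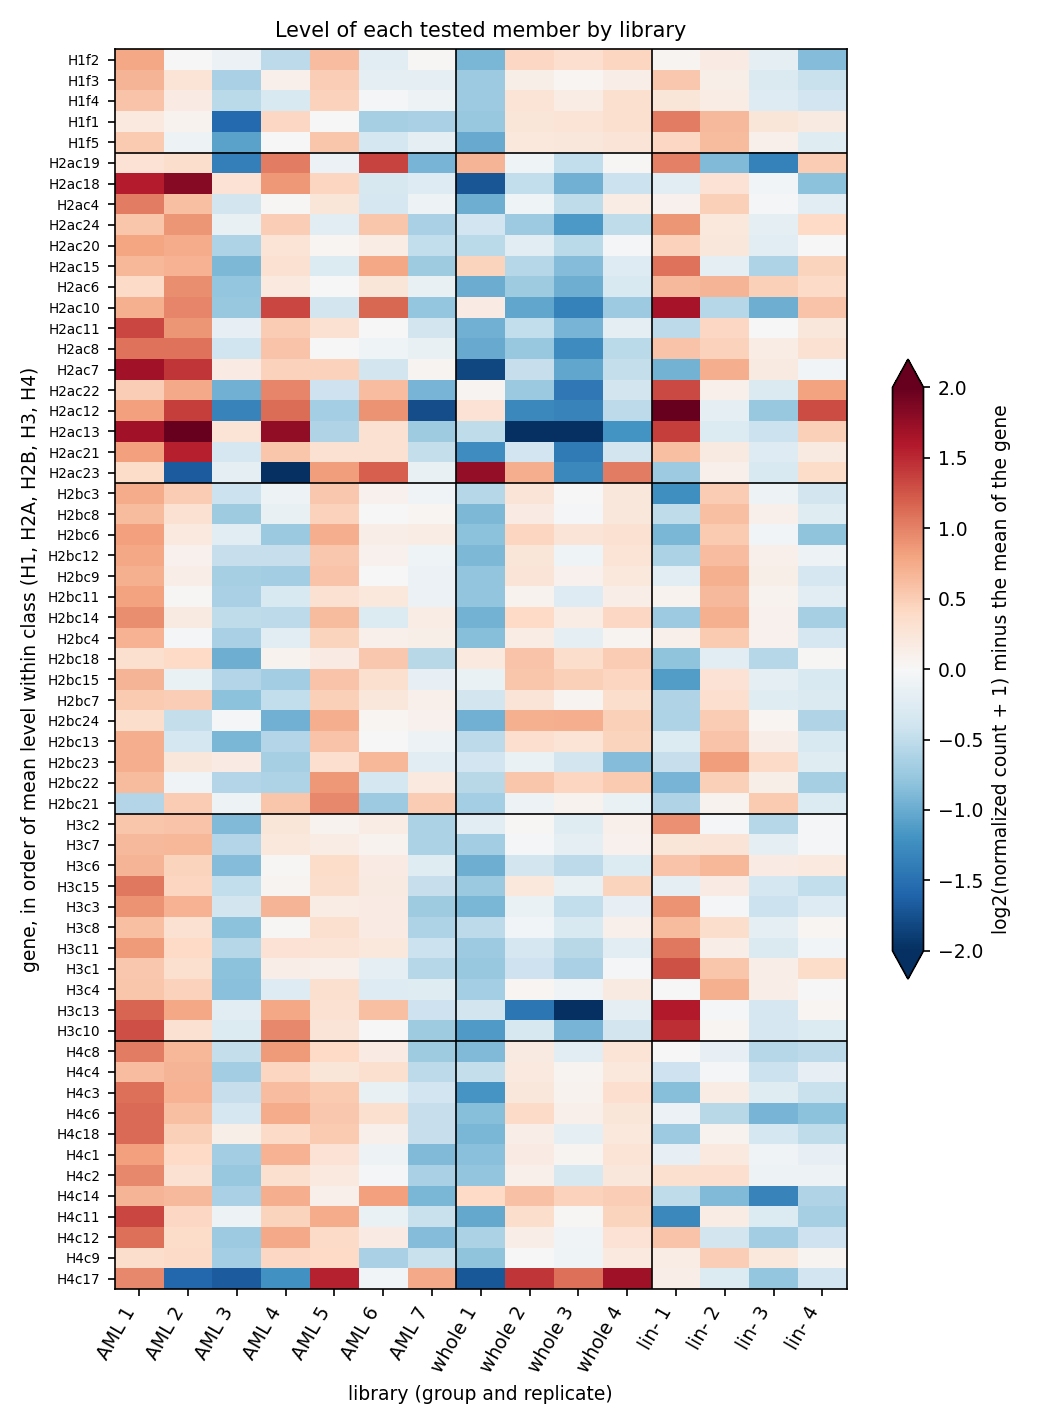
Level of each of the 60 tested members in each library, as log2(normalized count + 1) minus the mean of the gene over the 15 libraries (colour, cut at −2 and 2), with genes ordered by class and mean level. Many H2A rows are high in AML replicates 1, 2 and 4 and lineage-negative replicate 1, and most rows of whole marrow replicate 1 are low except several H2A genes.

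On the deposited scale the DNA synthesis genes of S phase showed another order of the group means than the histone genes. The order of the histone sums changed with scaling, as given above. The 26 DNA synthesis genes (MCM helicase, ribonucleotide reductase, polymerase and origin genes) summed to 53713 ± 12251 normalized counts in the 7 AML libraries (mean ± SD). The 4 whole marrow libraries stood at 51654 ± 14146 and the 4 lineage-negative ones at 107929 ± 9299.8. Lineage-negative marrow held 2.09 times the level of whole marrow for these genes but 1.07 times for the histone genes. In AML against lineage-negative marrow 17 of 26 fell and 0 rose, beside 12.5% and 17.7% of all genes. The median of the 26 was −1.10 against 0.02 for all genes. Mcm6, a helicase subunit, differed by −1.39 (SE 0.23, limma adjusted p = 5e-05), Rrm1, the large subunit of ribonucleotide reductase, by −1.06 (SE 0.23, limma adjusted p = 0.00071), and Mcm5 by −1.03 (SE 0.23, limma adjusted p = 0.00088). Mcm7 differed by −1.26 (SE 0.25, limma adjusted p = 0.0003), Uhrf1 by −1.04 (SE 0.24, limma adjusted p = 0.0013) and Mcm2 by −1.52 (SE 0.23, limma adjusted p = 1.8e-05). Over the same comparison 0 of 60 histone genes fell. In AML against whole marrow limma called 0 of 26 (3 higher and 2 lower at an unadjusted p below 0.05), with a median of 0.14 against 0.67 for all genes. Of all genes 27.3% rose and 11.3% fell there. With TMM scaling 0 of the 26 rose and 3 fell in that comparison, beside 4.77% and 16% of all genes.

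The sum of the histone genes over that of the DNA synthesis genes, a ratio within each library that scaling does not change and that was formed after the values were seen, was 7.82 ± 1.58 in AML, 6.71 ± 0.824 in whole marrow and 3.36 ± 0.333 in lineage-negative marrow. It ranged from 5.68 to 10.6 in AML. It was 7.51, 7.03, 5.57 and 6.72 in whole marrow and 3.69, 3.57, 3.17 and 2.99 in lineage-negative marrow. Every lineage-negative library lay below every AML and every whole marrow library, while AML and whole marrow overlapped. AML replicate 3, the lowest AML library in histone genes, was also the lowest in DNA synthesis genes with 30114, and its ratio was 8.18. Against 15 mitosis genes the ratio was 6.37 ± 1.29, 4.91 ± 0.69 and 4.44 ± 0.695 in the same order, with overlapping ranges in all 3 pairs of groups, and none of the 15 genes was called in any comparison by limma. At an unadjusted p below 0.05 it gave 3 higher in AML against whole marrow, 1 lower in AML against lineage-negative marrow and 5 higher in lineage-negative against whole marrow. These other genes have poly(A) tails, and the part of RNA capture in the ratio was not tested.

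**Figure D5:**
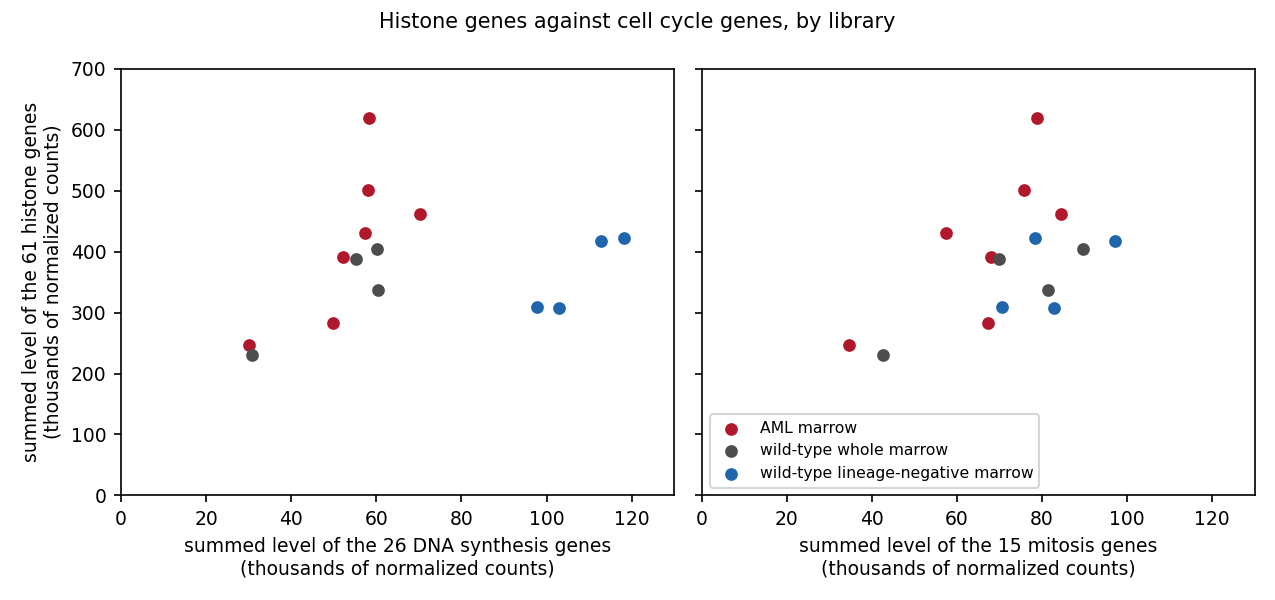
Summed level of the 61 histone genes (vertical) against that of 26 DNA synthesis genes (left) and 15 mitosis genes (right), 1 point per library in normalized counts, on linear axes from 0. Lineage-negative libraries lie at 97677 to 118209 normalized counts of DNA synthesis genes, to the right of all others, at a histone level within the range of the AML libraries.

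Other RNAs that lack a regular poly(A) tail also differed between the groups. In AML against whole marrow 4 of 6 tested rows rose and 0 fell, with a median of 1.67. In AML against lineage-negative marrow 2 of 6 rows rose and 0 fell, with a median of 0.69. The medians of all genes were 0.67 and 0.02. Of all genes 27.3% rose and 11.3% fell in the former comparison, and 17.7% rose and 12.5% fell in the latter. The RNA of ribonuclease MRP, Rmrp, is listed in 2 overlapping rows, which differed by 2.23 and 2.70 from whole marrow and by 1.56 and 1.70 from lineage-negative marrow (limma adjusted p = 0.0051 and 0.0052 for the latter), so how its reads were split is uncertain. The counts and medians above take these 2 rows as separate. Both calls against lineage-negative marrow were these rows of the same RNA. The telomerase RNA Terc differed from whole marrow by 2.37 (SE 0.56, limma adjusted p = 0.0013) and Neat1 by 1.10 (SE 0.28, limma adjusted p = 0.0022). The histone sum over the sum of this list was 0.775 to 2.46 in AML, against 2.23 to 2.43 for whole and 1.68 to 3.07 for lineage-negative libraries.

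The replication-independent histone genes, which serve outside S phase and most of whose transcripts have poly(A) tails, were counted in the same way. H2ax, which is in this list, is known to make a stem-loop transcript as well as a polyadenylated one, and it was not called in AML against whole marrow (0.63 (SE 0.29, limma adjusted p = 0.061)). In AML against whole marrow 5 of 11 rose and 0 fell, with a median of 0.88 against 0.67 for all genes. Of all genes 27.3% rose and 11.3% fell. Macroh2a1, a macroH2A gene, differed by 1.63 (SE 0.24, limma adjusted p = 1.6e-05), the linker histone gene H1f0 by 1.74 (SE 0.22, limma adjusted p = 5.4e-06) and H2aj by 1.53 (SE 0.21, limma adjusted p = 1.1e-05). With TMM scaling 2 of 11 rose and 0 fell, beside 4.77% and 16% of all genes. In AML against lineage-negative marrow 0 rose and 1 fell, H1f10, a low gene with 15.3 ± 11.2 against 76.7 ± 31.1 normalized counts. Of all genes 17.7% rose and 12.5% fell there. In lineage-negative against whole marrow 5 rose and 0 fell, beside 33.1% and 17.2% of all genes.

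Genes whose products transcribe histone genes, cut their transcripts and place histones on DNA were compared between AML and lineage-negative marrow. Of 24 genes of histone transcription and 3′ end processing 0 rose and 3 fell, beside 17.7% and 12.5% of all genes. Their median was −0.46, and the share that fell was near that of all genes. The 3 were Cstf2, a cleavage factor subunit, at −1.002 (SE 0.19, limma adjusted p = 0.00022), Ccne1, which encodes cyclin E1, at −1.30 (SE 0.26, limma adjusted p = 0.00039), and Coil, at −1.03 (SE 0.22, limma adjusted p = 0.00083). Npat and Slbp, named outside the rule for their direct role in histone transcription and the stem-loop, differed by −0.77 (SE 0.20, limma adjusted p = 0.0043) and −0.51 (SE 0.20, limma adjusted p = 0.045) and were not called for size. Of 19 histone chaperones 0 rose and 6 fell, beside the same shares of all genes, with a median of −0.91. Among those that fell were the FACT subunit Ssrp1 at −1.08 (SE 0.20, limma adjusted p = 0.00018), the H3-H4 chaperone Nasp at −1.12 (SE 0.21, limma adjusted p = 0.00021) and Chaf1a of CAF-1 at −1.12 (SE 0.22, limma adjusted p = 0.00028). In AML against whole marrow 3 of 24 (Cpsf3, Lsm11 and Mblac1) and 1 of 19 (Daxx) rose and 0 fell, beside 27.3% and 11.3% of all genes. With TMM scaling none of the 24 rose and 2 fell, the cyclin E genes Ccne1 (−1.40) and Ccne2 (−1.52), and none of the 19 was called, beside 4.77% and 16% of all genes. Immature and mature cell markers differed between AML and lineage-negative marrow, with 5 of 6 stem and progenitor genes lower and 7 of 7 mature neutrophil genes higher in AML. Their summed levels were 2421 to 8483 in AML against 15956 to 20268 for the former, and the latter lay at 926 to 15765 in lineage-negative marrow; the part of these cells in the histone values was not tested.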

How the data were processed

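The table holds 38315 genes in 15 libraries. Its values have the unit signal, called normalized counts here: per the name of the deposited table, they are counts that the authors scaled with DESeq2's poscounts size factors, 1 factor a library. Partek, STAR, DESeq2 and mm10 are named in the submitters' processing notes, without versions; the strand setting, annotation and treatment of reads with several matches are not given in the sources used here. Total RNA was extracted with TRIzol and libraries followed a stranded total RNA protocol, per the labels. Groups and replicate numbers come from the sample titles.

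Log2 values with a pseudocount of 1 of the 18941 genes with a normalized count of at least 10 in at least 4 libraries entered 1 limma fit of 3 group means (limma 3.58.1, R 4.3.3, mean-variance trend, two-sided), with Benjamini-Hochberg adjustment over all 18941 genes; 19374 genes were removed. Differences are on the log2(value + 1) scale, which understates changes of low genes. The fit was tested on simulated data with all 18941 genes, in which 66 and 68 of 100 genes changed by 1.5 and 2 log2 units were recovered for AML against whole marrow, with 8 unchanged genes called. Of the low values, 81.9% to 87.2% were whole multiples of the step that 1 read is worth, within a tolerance of 0.02 of a step, so whole reads were not recovered and no count test was run. Reads are estimates without molecular identifiers, so no interval is given for shares. A floor of 3 reads corresponds to 1.96 to 4.09 normalized counts and covers counting error only.

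The members and the gene lists were chosen with earlier results of these data known. Named are the 3 members of each class with the highest level per kb, the 2 largest and 2 smallest differences of each comparison among members with a mean of at least 100, and fixed members (H1f2, H2bc4, H2bc21); all other called members were named after their values were seen. Of other lists, called members are named, at most 6 a list by mean level. Transcripts are GENCODE M21 and promoters RefSeq GRCm38.p6, joined by gene identifier and symbol.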

Additional observations from a re-analysis of the deposited data

Results flagged for a closer look

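Of 141 groups of values examined (named members, class sums and pair ratios in each of the 3 groups of libraries), 6 had 1 library far from the others by Dixon's criterion at the 95% level, where chance gives about 5%. In whole marrow, replicate 1 lay below the others for 3 linker histone genes: H1f1 with 8392 normalized counts against 16823 to 17777, H1f2 with 10002 against 23613 to 25274, and H1f5 with 5013 against 11623 to 11980. The sum of the H1 genes in the same library was 44653 against 90198 to 96364. Its H2ac12/H2bc12 ratio was the highest of the group, 0.136 against 0.0206 to 0.0347. In lineage-negative marrow, H3c13 was highest in replicate 1 with 8650 normalized counts against 2290 to 2975 in the others. Whole marrow replicate 1 also had the lowest total of normalized counts and the smallest depth, and lineage-negative replicate 1 the highest relative level of GC-rich genes, as given above.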

How the results depend on the processing

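The counts of members called and their medians were recomputed with other pseudocounts, filters, scalings, fits and library sets. With TMM scaling AML against whole marrow gave 1 higher, 3 lower and a median of −0.44, and lineage-negative against whole marrow gave 0 higher, 9 lower and a median of −0.47; the mean summed level of whole marrow became 473721. Quantile scaling gave 0 higher, 5 lower and −0.50, then 0 higher and 1 lower for AML against lineage-negative marrow, and 0 higher, 7 lower and −0.28 for the last comparison. With the GC trend removed (chosen after seeing the data) lineage-negative against whole marrow gave 3 higher and 2 lower. With all genes of a non-zero value the lower calls were 1 and 2 against whole marrow. Leaving out libraries in turn gave 6 to 10 higher and 0 to 1 lower (1 without whole marrow replicate 1 or 3) for AML against whole marrow, 0 to 2 higher (0 without AML replicate 1, 2, 4 or 6 or lineage-negative replicate 3; 2 without AML replicate 3 or 7 or lineage-negative replicate 1 or 2) for AML against lineage-negative marrow, and 3 to 11 higher and 1 to 2 lower (2 without whole marrow replicate 1) for the last; the medians ran from 0.05 to 0.38, −0.0043 to 0.22 and 0.04 to 0.33. Why scaling shifts the values was not tested.

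Of 2340 values of single members under an alternative, 2118 kept direction and side of the threshold, 63 lost a call, 28 gained one and 131 changed sign, 57 of these with TMM or quantile scaling; 0 sign changes were of members called in that comparison. TMM scaling gave, in AML against whole marrow, −0.68 for H1f2, −0.64 for H2ac19, −0.18 for H2ac4, −0.51 for H2bc12, −0.31 for H2bc21, −0.49 for H2bc3, −0.42 for H2bc4, −0.47 for H2bc8, −0.30 for H3c1, −0.60 for H3c2, −0.0503 for H3c3, −0.0759 for H3c6, −0.18 for H4c18, −0.30 for H4c6 and −0.25 for H4c8. Quantile scaling gave, in AML against whole marrow, −0.73 for H1f2, −0.70 for H2ac19, −0.0626 for H2ac22, −0.26 for H2ac4, −0.60 for H2bc12, −0.40 for H2bc21, −0.48 for H2bc3, −0.49 for H2bc4, −0.52 for H2bc8, −0.35 for H3c1, −0.66 for H3c2, −0.15 for H3c3, −0.19 for H3c6, −0.28 for H4c18, −0.35 for H4c6 and −0.26 for H4c8. Removal of the GC trend gave, in AML against whole marrow, −0.13 for H1f2, −0.33 for H2ac19, −0.0515 for H2bc12 and −0.16 for H3c2. The replicate block gave, in AML against whole marrow, −0.0333 for H1f2. Leaving out AML replicates 5 and 6 together gave, in AML against whole marrow, −0.0352 for H1f2 and −0.16 for H2ac19. With single libraries left out in turn, sign changes in AML against whole marrow occurred for H1f2 from −0.31 to 0.13, H1f5 from −0.32 to 0.15, H2ac19 from −0.16 to 0.30, H2bc12 from −0.0751 to 0.31, H2bc8 from −0.0316 to 0.36 and H3c2 from −0.000163 to 0.24. Quantile scaling gave, in AML against lineage-negative marrow, −0.0425 for H1f2, −0.0599 for H2ac19, −0.11 for H2ac4, −0.15 for H2bc12, −0.15 for H2bc8, −0.067 for H3c13, −0.0436 for H3c3 and −0.0121 for H4c17. The replicate block gave, in AML against lineage-negative marrow, 0.11 for H2ac24, 0.21 for H2ac8, −0.00888 for H2bc12, 0.0409 for H3c2 and −0.55 for H4c17. Leaving out AML replicates 5 and 6 together gave, in AML against lineage-negative marrow, 0.0679 for H2ac8, −0.024 for H2bc12 and −0.22 for H4c17. With single libraries left out in turn, sign changes in AML against lineage-negative marrow occurred for H2ac19 from −0.13 to 0.66, H2ac23 from −0.34 to 0.21, H2ac24 from −0.29 to 0.0634, H2ac4 from −0.0717 to 0.21, H2ac8 from −0.20 to 0.0464, H2bc12 from −0.14 to 0.28, H2bc4 from −0.18 to 0.11, H2bc8 from −0.0728 to 0.30, H3c13 from −0.11 to 0.53, H3c2 from −0.28 to 0.21 and H4c17 from −0.14 to 0.40. TMM scaling gave, in lineage-negative against whole marrow, −0.19 for H1f1, −0.38 for H1f5, −0.0137 for H2ac11, −0.25 for H2ac4, −0.58 for H2bc12, −0.54 for H2bc21, −0.39 for H2bc4, −0.56 for H2bc8, −0.53 for H3c2 and −0.22 for H3c3. Quantile scaling gave, in lineage-negative against whole marrow, −0.22 for H1f5, −0.15 for H2ac4, −0.45 for H2bc12, −0.61 for H2bc21, −0.28 for H2bc4, −0.37 for H2bc8, −0.29 for H3c2 and −0.10 for H3c3. Removal of the GC trend gave, in lineage-negative against whole marrow, −0.0427 for H2ac4, −0.12 for H2bc12, −0.0126 for H2bc8 and −0.0931 for H3c2. With single libraries left out in turn, sign changes in lineage-negative against whole marrow occurred for H1f5 from −0.00184 to 0.46, H2ac19 from −0.61 to 0.18, H2bc12 from −0.15 to 0.32, H2bc21 from −0.0525 to 0.33, H2bc3 from −0.54 to 0.0348, H2bc8 from −0.13 to 0.30 and H3c2 from −0.12 to 0.38. The replicate block gave 11 higher for AML against whole and 5 higher for AML against lineage-negative marrow, but the labels do not state that replicate numbers pair the samples. Correlations of deviations of same-numbered libraries ran from −0.288 to 0.171. Libraries of different numbers were not compared, so these values cannot show whether the samples were paired. The planned tests on whole reads were not run because whole reads were not recovered. Depth limits members near the floor, such as H3c14.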
